A study of Mus musculus with 10 samples.

Results

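Slpi and 7 other protease inhibitor genes were followed in mouse popliteal lymph nodes, the nodes that drain the hind paw. The others were Wfdc17, Serpina3f, Serpina3g, Serpina3n, Serpinb6b, Stfa2l1 and Cst7. These 8 of the 54987 genes measured were picked by name, with earlier results of these libraries known, as inhibitors thought to be higher in AIA nodes than in Control nodes. Their AIA minus Control values, and the calls counted among them, are therefore a description and no evidence for that difference. One of them, Serpina3n, went against that description: its level was lower, not higher, on average in AIA.

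Proteases from neutrophil granules, cytotoxic granules and lysosomes digest microbes and proteins for presentation, and inhibitors made by the same tissues limit the damage they do. Serpins trap their target protease in a covalent complex from which neither partner is released. Proteins with a whey acidic protein (WAP) domain, such as Slpi, plug the active site of neutrophil serine proteases reversibly, and cystatins and stefins do the same to cysteine cathepsins.

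The 10 libraries came from popliteal nodes of male BALB/c mice, 6 to 8 weeks old, on day 15. Control (3 libraries, numbered 15, 16 and 17) received saline under the skin of the right hind paw, and AIA (4 libraries, 5, 10, 31 and 38) received the same volume, 0.1 ml, of complete Freund's adjuvant, in which killed mycobacteria are emulsified in oil to induce arthritis. Acu (3 libraries, 4, 6 and 28) received the same adjuvant and acupuncture, at ST36 by the series title. A sham acupuncture arm named in the protocols is not analysed here. Nothing in the labels ties each library to its own mouse, so p-values measure only the spread between these libraries.

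Recovered reads ranged from 13269763 to 18926894 per library, and AIA 10 listed 15116 genes above 0 against 21224 to 24411 in the other 9. The libraries labelled Control 17 and Acu 4 did not look like lymph node. Their summed level of 12 decidua and uterus genes was 13685 and 5617 FPKM, against 145 at most elsewhere, and that of 12 trophoblast genes was 69.0 and 5841 FPKM, against 1.27 at most elsewhere. B cell genes, which define a node, had a mean log2(FPKM + 1) of 0.27 and 0.39 in these libraries and of 0.51 in Control 15, against 6.14 in Control 16 and 5.82 to 6.56 in the other 6. Control 15 and Control 16 also held adipocyte genes, with 28451 and 9492 summed FPKM against 52.9 to 415 in AIA, and skeletal muscle genes, with 3480 and 13869 against 16.5 to 1907. Control 16, the library with the most muscle signal, was the only Control library with B cell genes at the AIA level. Control 15, with T cell genes at 6.54 summed FPKM against 338 in Control 16, did not look like lymph node by its lymphocyte genes either. The fitted differences of the 8 genes are given with and without the libraries labelled Control 17 and Acu 4, while group means and SDs use all libraries. Control 15 stays in these fits unless stated. Where it is left out as well, Control 16 alone stands for Control. Control then adds no spread of its own, and a call kept or lost in that fit rests on that library and on the spread within AIA and Acu. In bulk tissue fewer cells of a type and less RNA per cell cannot be told apart.

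All 8 genes passed the filter on low values. FPKM (fragments per kilobase of gene, scaled to a size set for each library) corrects for gene length, so levels can be set side by side across genes. Slpi was the most abundant of the 8 in every AIA library and every Acu library, whereas in Control 15 and Control 16 that place was held by Serpina3n and in the library labelled Control 17 by Cst7.

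**Figure D1:**
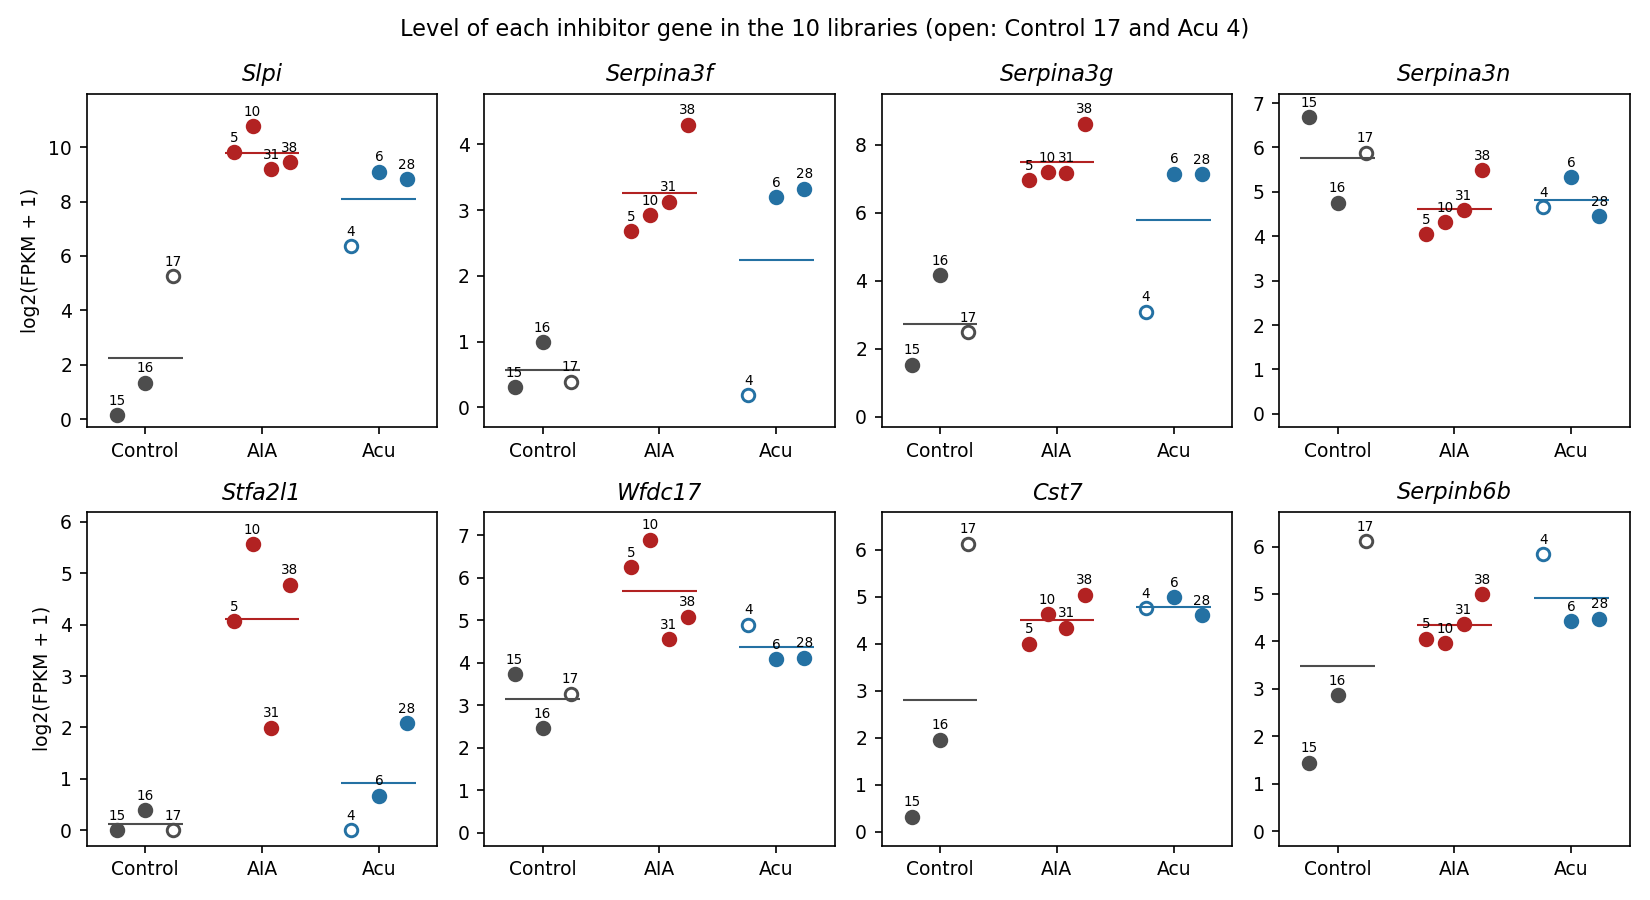
Level of each of the 8 genes in each library, as log2(FPKM + 1) on the vertical axis, by group on the horizontal axis. Points carry the library number, lines are group means, and open points are the libraries labelled Control 17 and Acu 4. For Slpi, Serpina3f, Serpina3g, Stfa2l1 and Wfdc17 every AIA point lies above every Control point, and for Serpina3n the highest points are Control libraries.

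Slpi (ENSMUSG00000017002, chr2:164354070-164389095, minus strand) encodes secretory leukocyte protease inhibitor, a WAP protein that blocks neutrophil elastase and cathepsin G. Its level was 0.103 FPKM in Control 15, 1.54 in Control 16 and 37.1 in the library labelled Control 17. In AIA 5, 10, 31 and 38 it was 901, 1745, 587 and 697 FPKM, and in Acu 4, 6 and 28 it was 81.7, 546 and 451 FPKM. The groups therefore lay in the order AIA, Acu and Control without overlap, and the lowest library of each diseased group was still above every Control library. The group levels were 12.9 ± 21.0 FPKM in Control (SD, n = 3), 982 ± 525 in AIA (SD, n = 4) and 359 ± 245 in Acu (SD, n = 3). Behind them stood 2, 28 and 672 reads in Control and between 12302 and 23347 reads per AIA library. By FPKM Slpi ranked between 57 and 90 among all genes in AIA, and 75, 108 and 675 in Acu 6, Acu 28 and the library labelled Acu 4. In Control its rank was 19172, 12237 and 1610. On the log2(FPKM + 1) scale, which understates the change of low genes, AIA minus Control was 7.56 (SE 1.12). Without the libraries labelled Control 17 and Acu 4 it was 9.07 (SE 0.56), since the highest Control value came from Control 17. The span of Slpi holds the microRNA gene Mir7678 on the same strand, listed at 27.8 FPKM at most.

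Wfdc17 (ENSMUSG00000069792, chr11:83703991-83706268, plus strand) encodes another small WAP protein, known from activated macrophages and microglia. It stood at 12.3, 4.49 and 8.68 FPKM in Control 15, 16 and 17. The levels were 74.7, 118, 22.6 and 32.9 FPKM in AIA 5, 10, 31 and 38, and 28.8, 15.9 and 16.4 FPKM in Acu 4, 6 and 28. Every AIA and Acu library was above every Control library, while the library labelled Acu 4 lay inside the AIA range. The means were 8.50 ± 3.92 FPKM in Control (SD, n = 3), 62.1 ± 43.7 in AIA (SD, n = 4) and 20.3 ± 7.29 in Acu (SD, n = 3). The difference AIA minus Control was 2.54 on the log2(FPKM + 1) scale (SE 0.57), and 2.60 (SE 0.67) without the libraries labelled Control 17 and Acu 4. AIA fell into a higher pair (5 and 10) and a lower pair (31 and 38), a split that Slpi showed less clearly.

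Serpina3f, Serpina3g and Serpina3n belong to the clade A3 serpins, a tandem cluster on chromosome 12 that in mice has expanded from a single ancestor. Serpina3g is a cytosolic inhibitor of lysosomal cathepsins made by leukocytes, Serpina3f is its neighbour and close paralogue, and Serpina3n is a secreted acute phase inhibitor of granzyme B and cathepsin G. The 250 bases before the RefSeq start of these 3 genes (build GRCm38.p6) are shown. Serpina3f and Serpina3g rose and fell across the libraries together and Serpina3n did not. The part of these sequences in the levels was not tested, and Serpina3f and Serpina3g share transcript stretches, as given below. Capitals mark 9 bases at aligned places, which in Serpina3f and Serpina3g match the letters TTCNNNGAA of the GAS-type motif that STAT factors are known to bind. The windows are chr12:104214294-104214543 for Serpina3f, chr12:104235897-104236146 for Serpina3g and chr12:104406458-104406707 for Serpina3n, all on the plus strand, written from 5′ to 3′.
Serpina3f: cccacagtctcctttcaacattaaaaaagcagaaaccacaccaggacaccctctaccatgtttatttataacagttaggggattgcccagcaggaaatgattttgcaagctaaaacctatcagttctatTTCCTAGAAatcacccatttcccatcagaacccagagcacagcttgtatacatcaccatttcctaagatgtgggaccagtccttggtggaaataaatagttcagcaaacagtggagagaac
Serpina3g: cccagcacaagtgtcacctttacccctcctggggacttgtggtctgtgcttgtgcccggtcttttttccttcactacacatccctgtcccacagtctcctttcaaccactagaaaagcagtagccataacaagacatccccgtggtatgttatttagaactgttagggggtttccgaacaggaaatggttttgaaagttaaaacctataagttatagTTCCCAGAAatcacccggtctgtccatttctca
Serpina3n: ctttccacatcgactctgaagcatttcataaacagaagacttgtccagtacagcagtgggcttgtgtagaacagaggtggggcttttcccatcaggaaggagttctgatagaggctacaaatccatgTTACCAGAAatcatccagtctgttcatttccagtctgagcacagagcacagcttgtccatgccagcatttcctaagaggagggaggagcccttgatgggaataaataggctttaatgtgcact
The 9 bases start 121 bases before the RefSeq start in Serpina3f, 33 before it in Serpina3g and 123 before it in Serpina3n. The RefSeq starts of Serpina3g and Serpina3n lie 105 and 21 bases from the nearest GENCODE start. Counted from 1 at the 5′ end of the 9 bases, Serpina3g differs from Serpina3f by T5C, which falls on an open position of the motif. Serpina3n differs from Serpina3f by C3A and T5C, and the first of these breaks the match. Over 300 bases around the start, Serpina3f and Serpina3g were identical at 79.0% of 214 aligned columns, Serpina3f and Serpina3n at 64.2% of 310, and Serpina3g and Serpina3n at 66.2% of 222.

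Both strands of the 250-base window of all 8 genes were searched, and all 8 matched an entry of the RefSeq promoter table. The motif TTCNNNGAA, which reads the same on both strands, was found in Serpina3f and Serpina3g only among the 8, and in 7.14% of 27025 promoters. The C/EBP letters TTGCNNAA were found in Slpi and, at 2 places, in Serpina3f, against 9.55% of all promoters. A kappa B motif was found in Serpina3g and Serpina3n, against 1.41% of all promoters. The TATA box letters TATAAA were found in Serpina3f, against 13.0%. That match lay 186 bases before the start and on the minus strand, opposite to the gene. An interferon response motif was found in none of the 8, against 3.05%. Apart from the TTCNNNGAA matches, which are the 9 capital bases themselves in Serpina3f and Serpina3g, no match overlapped those bases, and a match of letters describes the sequence without showing that a factor is bound.

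Serpina3g (ENSMUSG00000041481, chr12:104236245-104241939, plus strand) was the second most abundant of the 8 in AIA by mean. Its level was 1.91, 17 and 4.64 FPKM in Control 15, 16 and 17. In AIA 5, 10, 31 and 38 it was 123, 146, 144 and 392 FPKM, and in Acu 4, 6 and 28 it was 7.55, 141 and 140 FPKM. Acu 6 and Acu 28 thus matched the middle of AIA closely, and the library labelled Acu 4 fell inside the Control range. The means were 7.85 ± 8.04 FPKM in Control (SD, n = 3), 201 ± 128 in AIA (SD, n = 4) and 96.1 ± 76.7 in Acu (SD, n = 3). AIA minus Control was 4.75 on the log2(FPKM + 1) scale (SE 1.00), and 4.63 (SE 0.74) without the libraries labelled Control 17 and Acu 4. Of all the 50-base stretches in its transcripts, 15.5% also occurred in other genes, mostly Serpina3h, so a share of its reads may have been counted elsewhere or borrowed.

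Serpina3f (ENSMUSG00000066363, chr12:104214544-104221129, plus strand) followed the same course at a far lower level. It was at 0.239, 0.989 and 0.313 FPKM in Control 15, 16 and 17. AIA 5, 10, 31 and 38 held 5.42, 6.59, 7.74 and 18.6 FPKM, and Acu 4, 6 and 28 held 0.137, 8.14 and 9.03 FPKM. As with Serpina3g, AIA 38 was the highest library, AIA and Control did not overlap, and the library labelled Acu 4 was low, here below all of Control. The difference between AIA and Control was 2.69 on the log2(FPKM + 1) scale (SE 0.73), and 2.61 (SE 0.46) without the libraries labelled Control 17 and Acu 4. Other genes shared 10.6% of its 50-base stretches, first of all Serpina3g with 6.03%. Serpina3g had the far higher level, so some of its reads may have been counted in Serpina3f. The part of such reads in the shared course was not tested.

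Serpina3n (ENSMUSG00000021091, chr12:104406729-104414329, plus strand) ran the other way. Its level was 101, 26.0 and 58.0 FPKM in Control 15, 16 and 17. In AIA 5, 10, 31 and 38 it was 15.5, 18.8, 23.0 and 43.8 FPKM, and in Acu 4, 6 and 28 it was 24.3, 39.2 and 20.9 FPKM. The highest AIA library, AIA 38, lay above Control 16, so the groups overlapped, and the Control values themselves spread widely. Means were 61.7 ± 37.8 FPKM in Control (SD, n = 3), 25.3 ± 12.7 in AIA (SD, n = 4) and 28.1 ± 9.78 in Acu (SD, n = 3). AIA minus Control was -1.16 on the log2(FPKM + 1) scale (SE 0.51). It was -1.11 (SE 0.61) without the libraries labelled Control 17 and Acu 4, and -0.15 (SE 0.61) when Control 15 was left out as well. Control 15, the highest library for Serpina3n, was also the highest for adipocyte genes, with 28451 summed FPKM; the part of fat tissue in this value was not tested.

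Serpinb6b (ENSMUSG00000042842, chr13:32965209-32979067, plus strand) encodes a cytosolic clade B serpin, a paralogue of the cathepsin G inhibitor Serpinb6a. It stood at 1.72, 6.29 and 68.2 FPKM in Control 15, 16 and 17. AIA 5, 10, 31 and 38 stood at 15.6, 14.6, 19.7 and 30.8 FPKM, and Acu 4, 6 and 28 at 56.0, 20.5 and 21.3 FPKM. Its highest values were the libraries labelled Control 17 and Acu 4, and without them every AIA and Acu library was above both Control libraries. AIA minus Control was 0.87 on the log2(FPKM + 1) scale (SE 0.91) with all libraries and 2.19 (SE 0.46) without those libraries. With Control 15 alone left out it was -0.15, so the sign with all libraries rested on that library.

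Cst7 (ENSMUSG00000068129, chr2:150570415-150578944, plus strand) encodes cystatin F, a lysosomal cystatin of leukocytes that acts on cathepsin C in cytotoxic and myeloid cells. Its level was 0.247, 2.89 and 68.8 FPKM in Control 15, 16 and 17. In AIA 5, 10, 31 and 38 it was 14.9, 23.6, 19.2 and 31.9 FPKM, and in Acu 4, 6 and 28 it was 25.9, 30.8 and 23.3 FPKM. The library labelled Control 17 was the highest of all, the other Control libraries were the lowest of all, and AIA and Acu overlapped. Relative to Control, AIA differed by 1.70 on the log2(FPKM + 1) scale (SE 1.07), and 3.36 (SE 0.49) without the libraries labelled Control 17 and Acu 4. Leaving out those libraries raised the AIA minus Control value of Cst7, Slpi and Serpinb6b by more than 1 on the log2 scale and moved the other 5 by less.

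Stfa2l1 (ENSMUSG00000059657, chr16:36156811-36161948, plus strand) belongs to the stefin A group, cytosolic inhibitors of cysteine cathepsins. It was listed at 0 in Control 15 and Control 17 and at 0.313 FPKM in Control 16, from 2 reads. It reached 15.8, 46.2, 2.99 and 26.4 FPKM in AIA 5, 10, 31 and 38, from 96, 217, 22 and 186 reads. In Acu 4, 6 and 28 it was 0, 0.596 and 3.25 FPKM, from 0, 5 and 27 reads. All AIA libraries exceeded Control, and AIA 31, the lowest of AIA, was just below Acu 28. Summed over libraries, 521 reads in AIA against 2 in Control gave a ratio of 203 per unit of library size, with an exact 95% interval from 55.8 to 1677 that covers counting error only. Without the library labelled Control 17, which had 0 reads, the ratio was 137 (37.7 to 1132). Against the 32 reads of Acu the ratio was 15.1 (10.5 to 22.3), and 10.8 (7.56 to 15.97) without the library labelled Acu 4. AIA minus Control was 3.97 on the log2(FPKM + 1) scale (SE 0.78), and 3.91 (SE 0.88) without the libraries labelled Control 17 and Acu 4. Other genes, first of all Stfa2, shared 24.6% of its 50-base stretches, so reads of stefin copies cannot be fully separated.

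Between AIA and Control, 5 of the 8 genes did not overlap and were higher in AIA with all 10 libraries, against 11.4% of all 17010 genes tested. Without the libraries labelled Control 17 and Acu 4 this was 7 of 8 against 18%, all but Serpina3n. With all libraries limma called 4 genes, or 0.0235%, at an adjusted p under 0.05, and none of the 8; voom also called 0 of the 8. Array weights called 4 of the 8, against 19.5% of all genes, and 6 of the 8 had an unadjusted p under 0.05, against 25% of all genes. Without the libraries labelled Control 17 and Acu 4, limma called 701 genes higher in AIA, or 4.36% of 16067, and 7 of the 8 were among them. With Control 15 also left out, 73 genes or 0.466% were called higher, and of the 8 only Slpi and Cst7 were. Since these genes were chosen for this difference, the counts describe them and support nothing further. The median over the 8 was 2.62 with all libraries, against -0.07 over all genes.

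**Figure D2:**
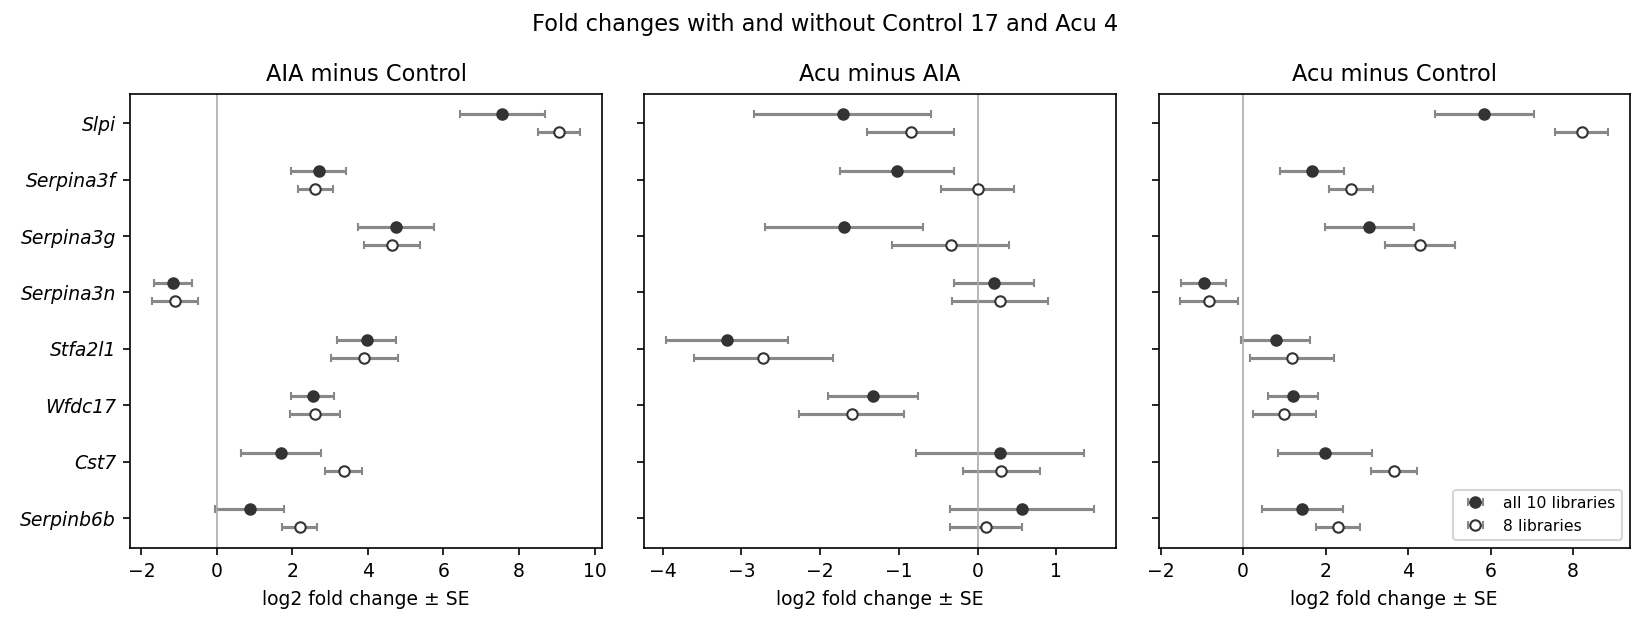
Differences between groups for each gene on the log2(FPKM + 1) scale (horizontal axis) with limma's standard error as bars, in panels for AIA minus Control, Acu minus AIA and Acu minus Control. Filled points use all 10 libraries and open points the 8 without the libraries labelled Control 17 and Acu 4. In Acu minus AIA the value for Serpina3g moves from -1.69 to -0.34 and that for Serpina3f from -1.02 to 0.00.

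Acu was compared with AIA to ask how acupuncture changed the adjuvant response, a contrast that did not choose the genes but shares the AIA libraries with the one that did. Genes picked as high in these AIA libraries lean towards lower values in Acu by that choice alone. The signs and the median below are therefore described only. Stfa2l1 passed the filter on low values only through its AIA libraries. Stfa2l1 had the largest difference: its level was 1.28 ± 1.73 FPKM in Acu (SD, n = 3) against 22.9 ± 18.3 in AIA (SD, n = 4), or -3.18 on the log2(FPKM + 1) scale (SE 0.78). Slpi was lower in Acu by -1.71 (SE 1.12) and was the only 1 of the 8 whose Acu libraries all lay below every AIA library, which held for 5.1% of all genes. Wfdc17 differed by -1.33 (SE 0.57), Serpina3g by -1.69 (SE 1.00) and Serpina3f by -1.02 (SE 0.73). Serpinb6b, Cst7 and Serpina3n had higher means in Acu, by 0.57 (SE 0.91), 0.28 (SE 1.07) and 0.21 (SE 0.51). None of these differences passed limma's test, with Benjamini-Hochberg adjusted p-values between 0.746 and 0.936. Over all genes limma called 0 of 17010 (0%), with 800 (4.7%) at an unadjusted p under 0.05, voom called 0, and array weights called 98 (0.576%). Of the 8, Stfa2l1 and Wfdc17 had an unadjusted p under 0.05, and neither voom nor array weights called any. The median over the 8 was -1.18, against 0.08 over all genes tested, but -0.17 against 0.06 without the libraries labelled Control 17 and Acu 4, with 4 of the 8 on each side of 0.

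Part of the Acu minus AIA differences came from the library labelled Acu 4. Without it and the library labelled Control 17, Serpina3g differed by -0.34 (SE 0.74) and Serpina3f by 0.00 (SE 0.46). Slpi then differed by -0.85 (SE 0.56), with 498 FPKM as the mean of Acu 6 and Acu 28. Stfa2l1 kept -2.72 (SE 0.88) and Wfdc17 -1.60 (SE 0.67). In Slpi and Wfdc17 both remaining Acu libraries lay below all of AIA, a pattern found in 7.69% of all genes. The adjusted p-values in this fit ran from 0.984 to 1.00 and 479 genes (2.98%) had an unadjusted p under 0.05, so no difference between Acu and AIA was established for any of the 8; nor was one shown to be absent, given standard errors of 0.46 to 0.88.

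Acu minus Control shares its libraries with both other contrasts and is described only. With all 10 libraries the values were 5.85 for Slpi, 3.06 for Serpina3g, 1.98 for Cst7, 1.67 for Serpina3f, 1.44 for Serpinb6b, 1.21 for Wfdc17, 0.79 for Stfa2l1 and -0.96 for Serpina3n. Without the libraries labelled Control 17 and Acu 4 they were 8.21, 4.29, 3.66, 2.61, 2.30, 1.00, 1.18 and -0.82 in the same order. All Acu libraries exceeded all Control libraries for Slpi and Wfdc17, against 4.87% of genes. Without those libraries this was so for 7 of the 8, against 32.4% of genes. Limma then called Slpi, Serpina3f, Serpina3g and Cst7 higher, 4 of the 8, against 0.878% of genes; with Control 15 also left out it called none of the 8, with 5 at an unadjusted p under 0.05, against 12.3% of all genes. Of the 7 genes with a higher mean in Acu than in Control, Stfa2l1 and Wfdc17 stood nearest to Control in both fits.

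The inhibitor families around these genes were examined next, with proteases and acute phase genes. Wherever Control 15 is also left out below, Control 16 alone stands for Control. A call kept or lost there rests on that library and on the spread within AIA and Acu. With all 10 libraries limma called 0 of the 113 list genes tested in AIA minus Control; 39 had an unadjusted p under 0.05, voom called 0 and array weights called 24. The calls that follow come from the fit without the libraries labelled Control 17 and Acu 4, in which limma called 4.36% of genes higher and 9.06% lower in AIA than in Control; with Control 15 also left out the shares were 0.466% and 2.36%. Of 107 list genes tested without those 2 libraries, the 8 among them, 32 were called, and 10 of 104 when Control 15 was left out as well. Of 11 clade A3 serpins 7 were tested, and besides Serpina3f and Serpina3g the only call was Serpina3c, which was lower in AIA by -3.73 (SE 0.59, limma adjusted p = 0.0072). Serpina3c stood at 37.5 and 6.84 FPKM in Control 15 and 16 and at 0.718 at most in AIA. It kept its call without Control 15 (adjusted p = 0.0387). Serpina3f and Serpina3g, which were chosen as higher in AIA, lost theirs in that fit, and Serpina3h and Serpina3n were called in neither.

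Of 8 clade B serpins tested, Serpinb6b and Serpinb9, an inhibitor of granzyme B, were called higher in AIA. Serpinb9 was at 8.90 and 8.39 FPKM in Control 15 and 16 and at 14.8, 34.6, 21.8 and 28.9 in AIA 5, 10, 31 and 38, a difference of 1.37 (SE 0.37, adjusted p = 0.0464). Serpinb1a, an inhibitor of neutrophil elastase and cathepsin G, was at 2.06 and 27.8 FPKM in these Control libraries and at 41.1 to 88.2 in AIA, and missed the threshold (adjusted p = 0.0613). Serpinb6a was at 20.7 and 12.5 FPKM in Control and 4.01 to 11.8 in AIA (adjusted p = 0.0777), so the values of the paralogues Serpinb6a and Serpinb6b lay in opposite directions. With Control 15 also left out no clade B serpin was called, and Serpinb9 had an adjusted p of 0.217.

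Of 7 stefins tested, Stfa2l1, Gm5483 and Stfa3 were called higher in AIA. Gm5483 was listed at 0 in Control 15 and 16 and at 10.04, 29.8, 2.18 and 19.3 FPKM in AIA 5, 10, 31 and 38 (adjusted p = 0.0218). All 3 Control libraries listed Stfa3 at 0, and AIA reached 2.98, 3.64, 1.37 and 9.99 FPKM (adjusted p = 0.0308). For Stfa2, also at 0 in all Control libraries, AIA values were 3.87, 8.55, 0.665 and 22.1 FPKM (adjusted p = 0.0736). In all of these AIA 31 was the lowest AIA library, as it was for Stfa2l1. Stfa2l1, Gm5483, Stfa3 and Stfa2 lay below the limit of the filter on low values in Control 15 and 16. They therefore passed that filter only through AIA and Acu libraries, and a lower level in AIA could hardly have been called. Stfa2l1 was also chosen as higher in AIA. The stefin calls are therefore described only. Cstb, the widely expressed stefin B, stood at 71.1 to 122 FPKM in AIA against 109 and 24.1 in Control 15 and 16 and was not called (adjusted p = 0.359). With Control 15 also left out no stefin was called.

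Among 5 WAP genes tested, Slpi and Wfdc17 were higher and Wfdc1 was lower in AIA, by -2.64 (SE 0.55, adjusted p = 0.0192); without Control 15 the latter had an adjusted p of 0.0606. Wfdc21, known from neutrophils and macrophages, stood at 96.9 FPKM in Control 15, 12.1 in Control 16 and 2.20 to 13.0 in AIA and was not called. Beyond these families, the metalloprotease inhibitor Timp1 was at 1.51 and 1.89 FPKM in Control 15 and 16 and at 22.0, 129, 32.1 and 33.1 in AIA 5, 10, 31 and 38, higher by 3.99 (SE 0.63, adjusted p = 0.0073; 0.0722 without Control 15). Serping1, the complement C1 inhibitor, was higher in AIA by 1.74 (SE 0.40, adjusted p = 0.0269; 0.0824 without Control 15). Timp4, another metalloprotease inhibitor, and Pi16 were lower by -4.33 (adjusted p = 0.0034) and -2.50 (adjusted p = 0.0034) and kept their calls without Control 15, while Serpina10 and Serpini1 were higher and lost theirs. Cst3, the ubiquitous cystatin C, was at 339 to 668 FPKM in AIA and 510 and 369 in Control 15 and 16 (adjusted p = 0.887).

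Many inhibitors of these families appeared in the libraries labelled Control 17 and Acu 4 alone. In clade B, 8 of 24 genes reached 1 FPKM in these libraries only, among them Serpinb9c, Serpinb9d, Serpinb9e, Serpinb9f and Serpinb9g. Among 22 WAP genes 7 did so, with Wfdc2 at 287 FPKM and Wfdc16 at 27.6 FPKM in the library labelled Acu 4. None of the clade A3 serpins and stefins did so.

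**Figure D3:**
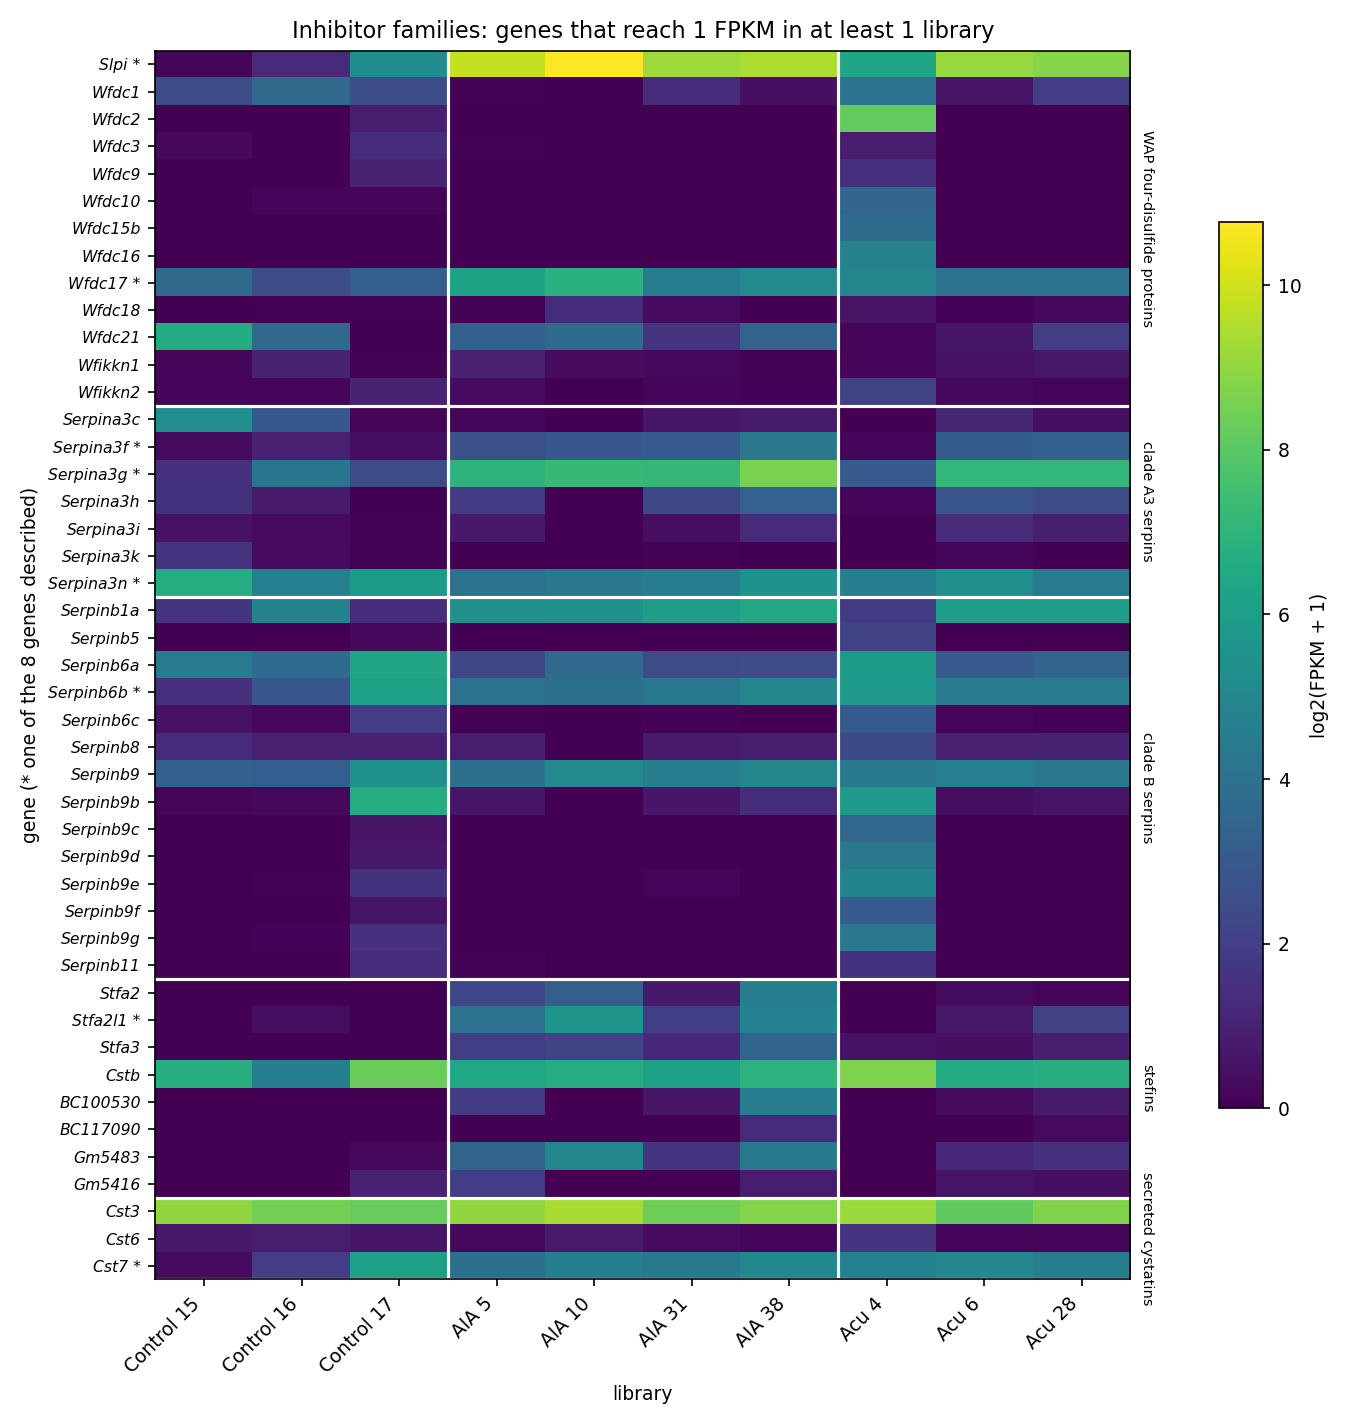
Levels of the WAP, clade A3 serpin, clade B serpin, stefin and secreted cystatin genes that reached 1 FPKM in any library. Rows are genes, with an asterisk on the 8 described; columns are the 10 libraries by group; colour is log2(FPKM + 1) on the scale at the right. Slpi is the brightest row in AIA, and genes such as Wfdc2 are visible in the library labelled Acu 4 only.

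The proteases that these inhibitors act on did not follow a single course. Elane, neutrophil elastase and the classic target of Slpi, was at 2.10, 1.25 and 0 FPKM in Control 15, 16 and 17. The AIA libraries 5, 10, 31 and 38 were at 0.624, 0, 0.0572 and 17.4 FPKM, and Acu 4, 6 and 28 at 0.0638, 0.150 and 1.11 FPKM. Only AIA 38 was above Control, and AIA 10, the library with the most Slpi and the fewest genes above 0, was listed at 0. Ctsg, cathepsin G, was at 9.40 FPKM in AIA 38 and at 0.708 or less in the other 3 AIA libraries. In the libraries labelled Control 17 and Acu 4 it stood at 142 and 43.9 FPKM.

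Of 11 cysteine cathepsins, Ctss, Ctsh and Ctsc were higher and Ctsf was lower in AIA in the fit of 8 libraries. Ctss, cathepsin S of antigen presentation, stood at 75.2 and 84.2 FPKM in Control 15 and 16 and at 475, 730, 341 and 486 in AIA 5, 10, 31 and 38, a difference of 2.61 (SE 0.47, adjusted p = 0.0118). Ctsc, the cathepsin that activates granule serine proteases and a target of Cst7, stood at 9.34 and 8.22 FPKM in these Control libraries and at 22.6, 24.7, 27.9 and 58.7 in AIA, a difference of 1.71 (SE 0.42, adjusted p = 0.0334). Ctsl, cathepsin L, stood at 70.8 and 17.2 FPKM in Control and at 27.1 to 38.7 in AIA (adjusted p = 0.980). Ctsf was lower by -2.62 (SE 0.40, adjusted p = 0.0063). With Control 15 also left out only Ctsf remained called (adjusted p = 0.0499), while Ctss and Ctsc had 0.0824 and 0.165.

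Gzmb, granzyme B of cytotoxic lymphocytes and a target of Serpina3n and Serpinb9, was at 1.57, 2.34 and 496 FPKM in Control 15, 16 and 17. In AIA 5, 10, 31 and 38 it was at 15.6, 18.9, 16.1 and 47.8 FPKM, and in Acu 4, 6 and 28 at 122, 15.1 and 17.7 FPKM. Like Cst7 and Serpinb6b, it was highest in the library labelled Control 17, and all AIA libraries exceeded all Control libraries only without it, with a difference of 2.97 (SE 0.46, limma adjusted p = 0.00705; 0.0693 without Control 15). Gzma was also called higher in AIA and Tpsb2, a mast cell tryptase, lower, among 14 granule proteases tested. Of 9 metalloproteases, Mmp3 was higher by 3.32 (SE 0.68, adjusted p = 0.0186) and Mmp14 by 1.64 (SE 0.43, adjusted p = 0.0406); without Control 15 Mmp3 was still called, Mmp14 was not, and Mmp12, macrophage elastase, was (3.64, SE 0.69, adjusted p = 0.0487).

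Of 19 acute phase and STAT3 genes tested, Il1b, Saa3 and Lcn2 were higher and Orm1 and Steap4 were lower in AIA. Il1b, which encodes interleukin 1 beta, was at 0.611 FPKM at most in Control and at 24.7, 32.8, 9.27 and 14.7 in AIA 5, 10, 31 and 38, a difference of 3.89 (SE 0.48, adjusted p = 0.0033; 0.0410 without Control 15). Saa3, serum amyloid A3, differed by 4.55 (SE 1.05, adjusted p = 0.0270), with 79.1 and 84.7 FPKM in AIA 5 and AIA 10 against 8.36 and 6.59 in AIA 31 and AIA 38. That is the split seen in Wfdc17. Without Control 15 the calls of Saa3, Lcn2 and Steap4 were lost (adjusted p = 0.186, 0.0797 and 0.327). Orm1, an acute phase protein also made by fat, was at 459 and 126 FPKM in Control 15 and 16 and at 5.45 at most in AIA, a difference of -5.94 (SE 0.57, adjusted p = 0.0028; 0.0213 without Control 15). These Control libraries held 28451 and 9492 summed FPKM of adipocyte genes, as given above, and the part of fat in the lower genes was not tested. Stat3 itself was at 12.4 and 10.3 FPKM in Control 15 and 16 and at 10.6 to 24.4 in AIA (adjusted p = 0.560).

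Some cell type marker lists were higher in AIA than in Control 15 and 16, and others were lower. Lower by summed FPKM were the adipocyte and skeletal muscle genes given above. So were the 12 decidua and uterus genes, at 139 to 145 against 15.6 to 74.7 in AIA. The 10 endothelium genes summed to 254 to 272 FPKM against 101 to 173 in AIA, but they were split by direction. In the fit of 8 libraries 5 were higher and 5 lower in AIA. Limma called 1 higher and 4 lower, against 4.36% and 9.06% of all genes. The 19 neutrophil genes summed to 9.18 and 11.3 FPKM in Control 15 and 16, to 471 in the library labelled Control 17, to 110 to 843 in AIA and to 67.3 to 590 in Acu. Of 17 tested, 8 were called higher in AIA once the libraries labelled Control 17 and Acu 4 were left out, and 2 when Control 15 was left out too. In AIA 10, the highest library for Slpi, Stfa2l1 and Wfdc17, 7 of the 19 were at 0, including the defining genes Ly6g, Camp and Ngp, although S100a8 and S100a9 were at 90.8 and 194 FPKM. That library listed fewer genes above 0 than any other, so its zeros cannot be set beside those of other libraries. AIA 38 had the largest neutrophil sum and the highest Serpina3f, Serpina3g, Serpina3n, Cst7 and Serpinb6b of AIA, with Ngp at 70.8 and Camp at 34.5 FPKM. AIA 31 had the smallest neutrophil sum of AIA, 110 FPKM, with Slpi at 587 FPKM. The libraries labelled Control 17 and Acu 4, with neutrophil sums of 471 and 590 FPKM, listed Stfa2l1 at 0. In Control 17 only 5 of the 19 neutrophil genes were above 1 FPKM, against 11 to 17 in AIA. The 16 monocyte and macrophage genes summed to 571 to 666 FPKM in Control, 2220 to 3658 in AIA and 739 to 3210 in Acu. The 10 plasma cell genes summed to 101 to 156 FPKM in Control, 2657 to 4446 in AIA and 224 to 2629 in Acu. In the fit of 8 libraries limma called 8 of the 10 plasma cell genes and 6 of the 16 monocyte and macrophage genes higher in AIA. It called 1 of 10 B cell genes and 0 of 11 T cell genes, against 4.36% of all genes. T cell genes summed to 6.54 and 14.3 FPKM in Control 15 and the library labelled Control 17, 10.5 in the library labelled Acu 4, 338 in Control 16 and 461 to 595 in the other 6. Like B cell genes, they were thus low in the 3 libraries where Serpina3f and Serpina3g were lowest. The 11 NK and cytotoxic genes were highest in the library labelled Control 17, at 1191 FPKM, as were Cst7 and Serpinb6b, against 28.3 and 184 in Control 15 and 16, 218 to 406 in AIA and 152 to 397 in Acu. Without the libraries labelled Control 17 and Acu 4, 6 of the 10 tested were called higher in AIA, and 0 of 10 by limma when Control 15 was left out too, with 6 at an unadjusted p under 0.05. The part of cell numbers in the inhibitor values was not tested.

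**Figure D4:**
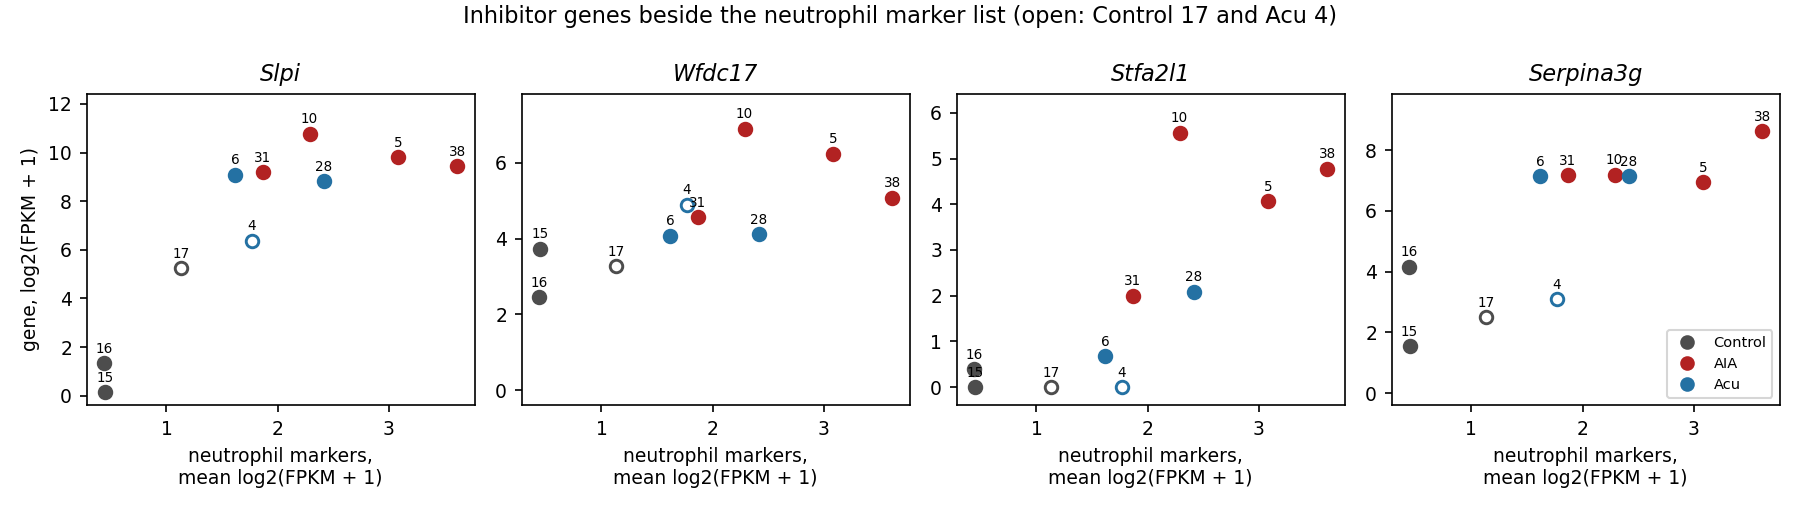
Slpi, Wfdc17, Stfa2l1 and Serpina3g in each library, as log2(FPKM + 1) on the vertical axis, beside the mean log2(FPKM + 1) of 19 neutrophil genes on the horizontal axis. Each point is a library with its number, colours are groups, and open points are the libraries labelled Control 17 and Acu 4. AIA 10 carries the highest Slpi, Wfdc17 and Stfa2l1 at a neutrophil mean of 2.29, below AIA 5 and AIA 38, and Serpina3g lies near 7 in 5 of the libraries.

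Genes whose pattern was most like each inhibitor were ranked by Pearson's r of log2(FPKM + 1), as a description; the points share libraries, depth and makeup. Over 10 libraries Slpi was closest to Ccl2, a monocyte chemokine (r = 0.965, n = 10), followed by Mastl, Actr2, Actr3 and Eif3m. Over the 8 libraries without those labelled Control 17 and Acu 4 it was closest to Vamp4 (r = 0.998, n = 8) and to Jchain, the joining chain of secreted IgM and IgA (r = 0.993, n = 8). Jchain stood at 2040, 2557, 1534 and 1582 FPKM in AIA 5, 10, 31 and 38, at 63.2, 1539 and 584 in Acu 4, 6 and 28, and at 5.32 or less in Control. Its AIA order, with AIA 10 first, AIA 5 next and the others below, was that of Slpi.

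Serpina3g was closest to Il33, an alarmin of stromal cells (r = 0.992, n = 10), and Serpina3f to Tacr1, the substance P receptor (r = 0.992, n = 10). Il33 was also among the closest to Serpina3f (r = 0.984, n = 10), and the level of Il33 was 14.4, 16.8, 15.8 and 35.9 FPKM in AIA 5, 10, 31 and 38. Stfa2l1 was closest to Cxcl11, a chemokine of the interferon response (r = 0.971, n = 10), and Wfdc17 to the collagenase gene Mmp13 (r = 0.912, n = 10). Cst7 was closest to Gem (r = 0.988, n = 10) and then to Topors and Plaur, and Serpinb6b to Hpse, which encodes heparanase (r = 0.984, n = 10). Serpina3n was closest to Clptm1 (r = 0.922, n = 10). Over the 8 libraries the first places went to Samhd1 for Serpina3f, Mthfd2 for Serpina3g, Qk for Serpina3n and Thg1l for Stfa2l1. They went to Slc35a5 for Wfdc17, Plek for Cst7 and Tor4a for Serpinb6b. No inhibitor kept its first partner when the libraries labelled Control 17 and Acu 4 were left out. Tacr1 for Serpina3f (r = 0.989), Il33 for Serpina3g (r = 0.993), Cxcl11 for Stfa2l1 (r = 0.971) and Gem for Cst7 (r = 0.993) then stood second (n = 8). The former first partners of Slpi, Serpina3n, Wfdc17 and Serpinb6b were no longer among the closest genes ranked.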

How the data were processed

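Libraries were made from Trizol-extracted RNA with a NEBNext Ultra kit, per the labels' protocols. The build mm10 and the tools DESeq2 1.16.1, featureCounts 1.5.0-p3, HISAT2 2.0.5 and StringTie 1.3.3b are named, with no role, per the submitters' processing notes. Strand handling in counting was not given in the sources used here. The authors deposited FPKM per gene and library, with gene names, lengths and coordinates. FPKM times gene length came out as whole multiples of 1 step for 100% of values above 0, to within 0.01 of that step, and these multiples were taken as reads. The median of ratios was 0.996 in every library, so the deposited FPKM were already on a common scale by this measure, and scaling left them as deposited. The library sizes implied by the steps differed from the recovered reads. They were 1.64e+07 against 18926894 in Control 15 and 2.03e+07 against 16391068 in Acu 6.

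A gene was tested if 3 or more libraries had an FPKM of 0.5 or more (17010 genes). limma 3.58.1 in R 4.3.3 was run on log2(FPKM + 1) with a mean-variance trend and all 10 libraries, Benjamini-Hochberg adjustment over the genes tested and a threshold of 0.05. SE is limma's moderated standard error. The script was tested on simulated data. The other settings tried were a pseudocount of 0.1, no filter, a mean FPKM of at least 1, no scaling, voom on the recovered reads, array weights, and fits without each library and without sets of libraries.

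The 8 genes and all gene lists (12 of inhibitors, proteases and acute phase genes and 16 of cell types) were chosen with earlier results of these data known. Named genes were the 8, the 3 genes most like each (5 for Slpi), list genes past the threshold or else the most abundant, and Elane, Ctsg, Ctsc, Ctsl, Ctss and Gzmb. Serpina3h, Serpinb1a, Serpinb6a, Stfa2, Cstb, Cst3, Wfdc21, Mmp12, Stat3, the genes seen in 2 libraries only and the neutrophil genes were named after their values were seen. Promoters came from RefSeq (GRCm38.p6), and 50-base stretches were compared over GENCODE transcripts of the same build. matplotlib 3.10.9, numpy 2.4.6, pandas 2.3.3, Python 3.11.15 and scipy 1.17.1 were used.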

Additional observations from a re-analysis of the deposited data

Results flagged for a closer look

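Serpina3g in AIA 38, at 391.8 FPKM, stood far from the other 3 AIA libraries (123, 146 and 144 FPKM): its gap to the nearest of them was larger, relative to the range of the group, than Dixon's 95% critical value for 4 samples allows. The AIA group of each of the 8 genes was examined in this way and this was the only one singled out; chance singles out about 1 in 20 groups. Serpina3f, its neighbour, was also highest in AIA 38, at 18.6 FPKM, without passing the same limit. AIA 38 had the largest summed level of the 19 neutrophil genes among the AIA libraries, 843 FPKM, and the part of that in the Serpina3g value was not tested.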

How the results depend on the processing

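Counts over all genes depended on the processing. For AIA minus Control limma called 4 genes with all libraries, 2156 without the libraries labelled Control 17 and Acu 4, 443 without Control 15 as well, 0 with a pseudocount of 0.1, 1 with no filter, 1 with a mean FPKM of at least 1, 0 by voom and 3319 with array weights. For Acu minus AIA the count was 0, and 2 with no filter and 98 with array weights. For Acu minus Control it was 0, and 698 without the libraries labelled Control 17 and Acu 4, 1 with no filter and 2067 with array weights. Leaving out 1 library at a time gave 0 to 1713, 0 to 1 and 0 to 303 calls in these comparisons. The largest counts came without the library labelled Acu 4 (1713 and 85 for AIA and Acu against Control) and the library labelled Control 17 (967 and 303); AIA minus Control had 7 calls without AIA 10, 2 without Acu 6 and 0 when the library left out was AIA 5, AIA 31, AIA 38, Acu 28, Control 15 or Control 16. Of 432 alternative values of the 8 genes, 394 kept direction and side of the threshold, 32 newly passed it and 6 changed sign. The setting without scaling repeated the main fit, since scaling changed nothing. Changed filters, and leaving out a library of the group not compared, left a difference as it was, so its direction could not change there. The 394 therefore include values fixed in advance. Serpina3f in Acu minus AIA became 0.0016 in the 3 settings without Acu 4 (range with 1 library left out -1.57 to 0.0016). Serpina3n became -0.052 in Acu minus AIA without Acu 6 (range -0.052 to 0.50) and 0.14 in Acu minus Control without Control 15, Control 17 and Acu 4. Serpinb6b became -0.15 in AIA minus Control without Control 15 (range -0.15 to 2.19). The cause of these changes was not tested. No paired analysis was possible because the groups share no replicate numbers. Depth limits Stfa2l1 most, which had 2 reads in all Control libraries together.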
